A study of Mus musculus with 4 samples.

Results

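The genes described here are 30 genes whose products mark the enteric nervous system: neurons, their transmitters and peptides, the receptors of their neural crest lineage, and glia. They were listed by gene symbol, and each gene is represented by whichever of its probe sets had the largest average across the 4 arrays. All 30 were measured, out of 22180 genes with a probe set of their own. Gene expression was measured on microarrays in the gastric corpus, the acid-secreting part of the stomach, of adult mice aged 8 to 10 weeks after 14 days of daily intraperitoneal injections. The 4 groups were C57BL/6 wild-type mice (WT) given saline vehicle, WT mice given metformin at 300 mg/kg, and Atp4b-cre; Prkaa1fl/fl; Prkaa2fl/fl mice (AmpkKO, here KO) given vehicle or the same dose of metformin. The KO mice lack both catalytic subunits of AMP-activated protein kinase (AMPK) where the promoter of the parietal cell gene Atp4b drives Cre, and they were on a mixed background with B6 and FVB ancestry, so genotype and background cannot be told apart. Each group was measured on 1 array, and how many animals an array stands for is not stated in the sources used here. A difference between 2 arrays therefore has no replicate check and no p-value, and it is given as a size on the log2 scale.

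The wall of the stomach holds nerve cells and glia in the myenteric plexus between the muscle layers, with nerve fibres that reach the glands. Enteric neurons arise from neural crest cells, which depend on the receptor tyrosine kinase RET with its GDNF-family coreceptors and on the endothelin receptor EDNRB. Mature neurons release acetylcholine and tachykinins, which contract muscle and stimulate secretion, or nitric oxide and vasoactive intestinal peptide, which relax it. Most neuronal mRNA lies in the cell bodies, so a sample of the corpus wall carries it only as far as its ganglia were included. In RNA from whole tissue, fewer cells of a type and less RNA per cell cannot be told apart.

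A gene was read as measured above low signal when its mean over the 4 arrays was 5 or more on the log2 scale, a value close to the median of all gene means (5.03). Of the 30 genes, 17 passed (56.7%), against 50.5% of all genes. Just inside lay Uchl1 (mean 5.06) and just outside Gfap and Tubb3 (4.60 each). All 4 arrays were at or above 5 for 12 of the 17. Uchl1 passed only through its highest array. The markers most used to define enteric neurons and glia were largely on the low side. Elavl4, the RNA-binding HuD protein of neuronal cell bodies, ranged from 2.92 to 3.45 over the arrays. S100b, the calcium-binding protein of enteric glia, ranged from 3.03 to 3.36, and the glial filament gene Gfap from 4.40 to 4.78. The peripheral neurofilament gene Prph (4.06 to 4.39), the neurofilament genes Nefl (2.94 to 3.31) and Nefm (3.44 to 3.93) and the growth cone gene Gap43 (3.47 to 3.88) were also under 5 on every array. The label thus rests on the receptors, on Snap25, Ncam1, L1cam and Stmn2, and on the peptides Vip and Penk, and several of these are known from endocrine, stromal or endothelial cells too. Probe sets of different genes differ in their response, so levels are not compared between genes.

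**Figure D1:**
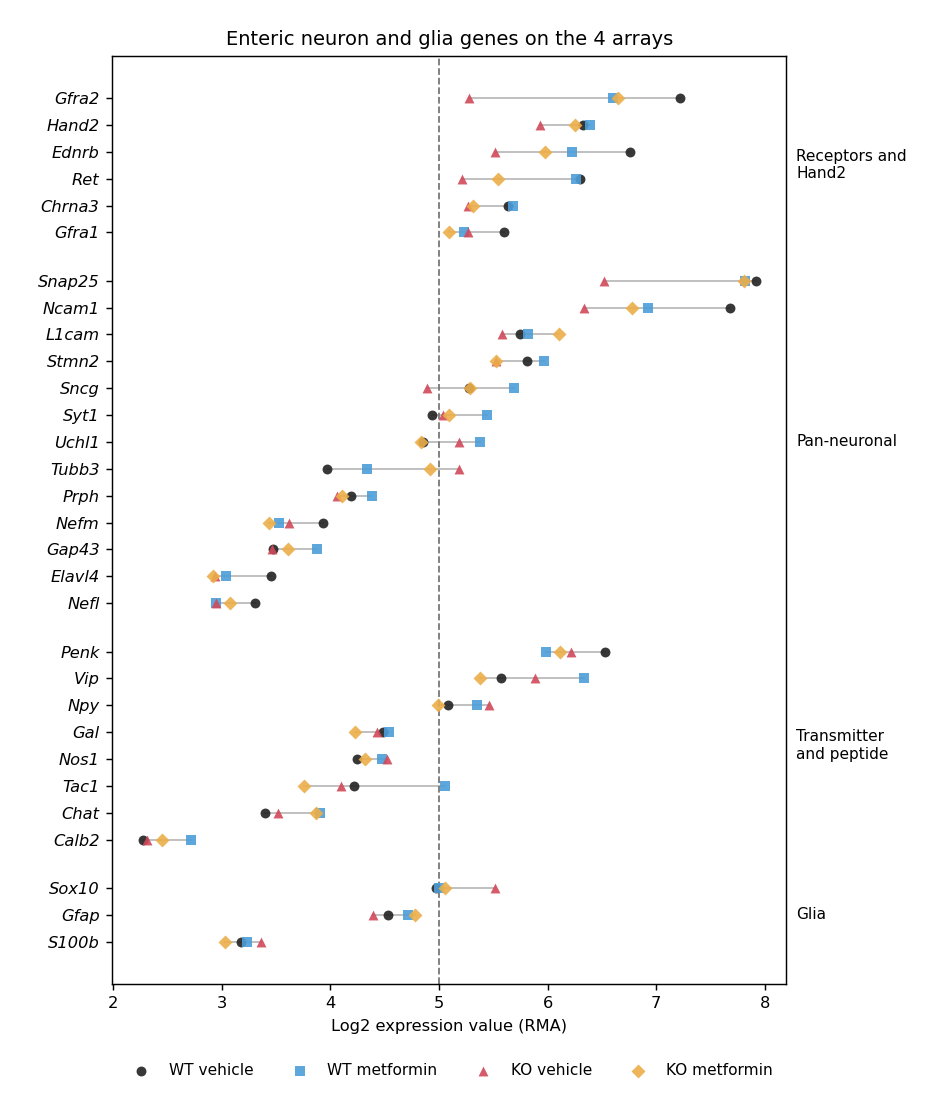
Log2 expression value (x axis) of the 30 genes (rows, grouped by role and ordered by mean within a group) on each of the 4 arrays, with a grey line from the lowest to the highest array and a dashed line at 5. Gfra2, Ednrb, Ret, Snap25 and Ncam1 are lowest on the KO vehicle array, and 13 genes have a mean left of the dashed line.

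The arrays differed in ways that touch these genes. The submitters' design text calls the KO tissue gastric epithelium and the labels call all 4 samples corpus. Prkaa1 and Prkaa2, the targeted genes, had KO minus WT differences of -1.28 and -1.71 under vehicle and of -0.24 and -0.50 under metformin in tissue where other cells keep them. Where their probes lie relative to the floxed exons is not known here, so these values do not check the labels. The KO vehicle array was the lowest of the 4 for 44.1% of the 11200 genes past the threshold, and the WT vehicle array was the highest for 46.1%. Between these arrays the median difference of all genes was -0.22, while the median was 1.13 for 59 small nucleolar RNA genes. Protein-coding genes were also divided by gene span, the distance from start to end of the gene in RefSeq (GRCm38.p6). The third of genes with the longest spans (42.0 kb or more) had a median difference of -0.35, and the third with the shortest (up to 14.5 kb) -0.04. Under metformin the same medians between genotypes were 0.05 and -0.0045, with 0.02 for all genes. Between the WT arrays, metformin minus vehicle, they were -0.24 and 0.0. The small nucleolar RNA median was also 1.13 between the WT arrays, with metformin higher, and -0.56 between the KO arrays. Of the genes of squamous epithelium, which lines the neighbouring forestomach, 5 passed the threshold. Their mean log2 level was 4.36 on WT vehicle, 4.89 on WT metformin, 5.15 on KO vehicle and 7.80 on KO metformin. As a group they passed mainly through the KO metformin array, so the height of that array is not read as a result. Over all 11 squamous genes measured, with no threshold, the median KO minus WT difference under metformin was 1.48.

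The vehicle arrays of both genotypes were set against each other first, as the comparison without metformin. The receptors of the GDNF and endothelin pathways, with Snap25 and Ncam1, were lower on the KO vehicle array. Of the 3 peptide genes past the threshold, Vip and Npy were higher there and Penk was lower. Of the 17 genes past the threshold, 5 were at least 2-fold lower in KO (29.4%), against 8.05% of all genes, and 0 higher by that much, against 2.32%. The 5 were Gfra2, Snap25, Ncam1, Ednrb and Ret. The median of the 17 was -0.34, close to that of all genes. Over all 30, 20 had a lower value in KO, against 47.3% of all 22180 genes.

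Over the 4 arrays, both KO arrays lay below both WT arrays for 7 of the 17 genes (Ret, Ednrb, Chrna3, Hand2, Snap25, Ncam1 and Stmn2), against 24.1% of all genes, and above them for 1, Sox10, against 12.1%. The KO vehicle array was the lowest for 9 of the 17, against 44.1% of all genes, and the KO metformin array for 5, against 17.7%. The WT vehicle array was the highest for 7, against 46.1%, and the WT metformin array for another 7, against 13.4%. The latter 7 include Uchl1, which passed the threshold only through that array, so nothing is read from this count.

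Gfra2 encodes the coreceptor that binds neurturin, a ligand that supports enteric nerve fibres. Its log2 values on the WT arrays were 7.22 with vehicle and 6.60 with metformin, and on the KO arrays 5.27 with vehicle and 6.65 with metformin. The KO vehicle array stood alone at the bottom, and both metformin arrays lay together below WT vehicle. The KO minus WT difference was -1.95 under vehicle, a 3.86-fold lower value, and 0.05 under metformin. Ret, the signalling kinase shared by the GDNF-family coreceptors, had 6.30, 6.26, 5.21 and 5.55 in the order WT vehicle, WT metformin, KO vehicle, KO metformin, which is kept below. Here both KO arrays lay below both WT arrays, with differences of -1.08 (2.12-fold lower) under vehicle and -0.71 under metformin. Gfra1, the coreceptor for GDNF itself, had 5.60, 5.23, 5.26 and 5.09, and its differences of -0.34 and -0.14 did not reach 2-fold. A further probe set of Gfra1, with a mean of 3.002, lay under the threshold, and no difference is read from it.

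Ednrb, the endothelin receptor needed for crest cells to colonise the gut and also present in vessels, had 6.76, 6.22, 5.52 and 5.98. WT vehicle was highest and KO vehicle lowest, with a difference of -1.24 (2.36-fold lower). Both KO arrays were below both WT arrays, and under metformin the genotypes differed by -0.25. Chrna3, a subunit of the nicotinic receptor of autonomic ganglia, had 5.63, 5.68, 5.26 and 5.32. As for Ret, both KO arrays were below both WT arrays, by -0.37 and -0.36, which is less than 2-fold. Hand2, a transcription factor of enteric neurons and of the surrounding mesenchyme, had 6.33, 6.39, 5.93 and 6.25, with both KO arrays again below both WT arrays, by -0.40 and -0.15. All 6 genes of this group were lower on the KO vehicle array than on the WT vehicle array, and 3 of them by at least 2-fold, where 8.05% of all genes were and the median of all genes was -0.22.

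Among the general neuronal genes, Snap25 and Ncam1 differed most. Snap25, a membrane fusion protein of neurons and endocrine cells, had 7.91, 7.82, 6.52 and 7.81. The other arrays were alike and the KO vehicle array was lower, by -1.40 against WT vehicle (2.63-fold). Under metformin the difference was -0.01. Ncam1, an adhesion molecule of neurons, glia and endocrine cells, had 7.68, 6.93, 6.33 and 6.78, with differences of -1.35 (2.55-fold lower) and -0.15. Its values on the metformin arrays lay between those of the vehicle arrays.

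The other general neuronal genes past the threshold differed by less than 2-fold between genotypes. Stmn2, a microtubule regulator of growing axons, had 5.81, 5.97, 5.53 and 5.52, so both KO arrays were below both WT arrays. L1cam, an axonal adhesion molecule, was between 5.58 and 6.11 and highest on the KO metformin array. Sncg, a synuclein of peripheral neurons that fat cells also carry, had 5.27, 5.69, 4.89 and 5.28. The synaptic vesicle calcium sensor Syt1 (4.94 to 5.44) and the neuronal ubiquitin hydrolase Uchl1 (4.84 to 5.37) were highest on the WT metformin array. Uchl1 differed by 0.33 under vehicle and -0.54 under metformin, and its further probe set lay under the threshold. Tubb3, the neuronal tubulin, was under the threshold, with 3.96, 4.33, 5.18 and 4.92. Both KO arrays were above both WT arrays, and no fold is read from values this low.

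The transmitter and peptide genes differed among themselves under vehicle, and none past the threshold differed by 2-fold. Vip encodes vasoactive intestinal peptide, which relaxes gut muscle and stimulates secretion. It had 5.57, 6.33, 5.88 and 5.37. The WT metformin array was highest and the KO metformin array lowest, and the genotypes differed by 0.31 under vehicle and -0.96 under metformin. Tac1, the precursor of substance P and neurokinin A, had the same highest and lowest arrays, with 4.21, 5.06, 4.10 and 3.76, but its mean of 4.28 is under the threshold. Npy, the neuropeptide Y gene of sympathetic and some enteric fibres, had 5.08, 5.35, 5.46 and 4.99, with differences of 0.37 and -0.37. Penk, the enkephalin precursor, had 6.53, 5.99, 6.21 and 6.11. It was highest on the WT vehicle array, with a difference of -0.32 under vehicle, close to that of Gfra1, and of 0.12 under metformin. The neuronal nitric oxide synthase gene Nos1 (4.25 to 4.52), the acetylcholine synthesis gene Chat (3.40 to 3.91), which tuft cells carry too, the galanin gene Gal (4.23 to 4.54) and the calretinin gene Calb2 (2.27 to 2.71) were under 5 on every array.

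Among the glial genes, Sox10, the transcription factor of crest cells and enteric glia, was past the threshold. It had 4.98, 5.003, 5.52 and 5.06, so both KO arrays were above both WT arrays, by 0.54 under vehicle, where all 6 genes of the receptor group had the opposite sign, and 0.06 under metformin. S100b and Gfap, under the threshold, had differences of 0.19 and -0.13 under vehicle. The further glia and Schwann cell list did not follow Sox10. Of its 20 genes, 17 were measured here and 11 passed the threshold, with a median of -0.66 under vehicle. Among the 11, 1 was at least 2-fold lower, the tetraspanin gene Cd9 (-1.06), against 8.05% of all genes. Gpm6b, a membrane glycoprotein of glia, had -0.81 and was the next lowest. The highest were Foxd3, a crest transcription factor (0.61), and the myelin gene Mbp (0.60). Cd9 and several others of that list are carried by epithelium and stroma as well.

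The sequences before the starts of Vip and Ednrb are shown because both hold the letters TGACGT, the core of the cyclic AMP response element, while their differences under vehicle had opposite signs. RefSeq promoter windows (GRCm38.p6) were given for 19 of the 30 genes, which did not include Gfra2, Ret, Snap25 or Ncam1. In the 250 bases before the start, TGACGT on either strand was found for 4 of the 19 genes, which have 24 windows (Chat, Ednrb, Elavl4 and Vip), against 6.47% of 32851 windows. The letters TATAAA, the TATA box, were found for Vip and Prph, against 12.4%. In Vip, TGACGT began 79 bases before the start and the nearest TATAAA 30 bases before it. In Ednrb, TGACGT began 203 bases before the start. Letters of either motif are in capitals, and each sequence runs 5′ to 3′ on the strand of the gene, for Vip at chr10:5638968-5639217 on the plus strand and for Ednrb at chr14:103843702-103843951 on the minus strand. A match is a description of these letters and was not tested against expression.
Vip: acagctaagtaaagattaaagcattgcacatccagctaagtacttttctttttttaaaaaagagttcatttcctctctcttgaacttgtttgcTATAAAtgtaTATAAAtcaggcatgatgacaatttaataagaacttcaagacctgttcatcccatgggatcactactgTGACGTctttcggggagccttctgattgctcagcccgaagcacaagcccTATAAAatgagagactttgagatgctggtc
Ednrb: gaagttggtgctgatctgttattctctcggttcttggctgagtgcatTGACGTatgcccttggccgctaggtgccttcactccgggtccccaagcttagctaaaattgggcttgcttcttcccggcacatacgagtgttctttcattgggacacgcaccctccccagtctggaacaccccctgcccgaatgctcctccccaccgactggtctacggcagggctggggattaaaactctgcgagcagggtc

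The differences under vehicle were set beside gene span, since values of genes with long spans differed between the arrays in general. The mean log2 level of the third of genes with the longest spans was 7.09 on the WT vehicle array and 6.85 with metformin, and 6.71 on the KO vehicle array and 6.90 with metformin. The WT vehicle array was thus the highest and the KO vehicle array the lowest. Of the 17 genes, 7 lay in the third with the longest spans, and 4 of these 7 were at least 2-fold lower, against 9.30% of all genes with spans as long. These were Ncam1 (297 kb), Gfra2 (89.7 kb), Snap25 (69.0 kb) and Ret (46.0 kb). The median of the 7 was -1.08, and Syt1 (513 kb), with the longest span of all, had 0.10. Another 7 lay in the third with the shortest spans, among them Vip, Npy, Penk, Hand2 and Sox10. None of these 7 was 2-fold lower, against 5.98% of all genes with spans as short, and their median was 0.31. The trend on span was then removed from each array, a step chosen after seeing the data. Of the 17, 2 were then at least 2-fold lower, Gfra2 (-1.58) and Snap25 (-1.04), against 4.05% of 10641 genes. Ednrb (-0.94), Ncam1 (-0.98) and Ret (-0.75) no longer reached 2-fold, and the cause of the move was not tested.

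Most gene lists of other cells of the corpus wall also had negative medians in KO against WT under vehicle, but tuft cell genes did not. For all genes the median was -0.22 and 8.05% were at least 2-fold lower, the share that goes beside each count here. Smooth muscle genes had a median of -0.69 under vehicle, with 5 of 16 at least 2-fold lower. Their mean log2 level was 8.98 on the WT vehicle array, 9.08 on WT metformin, 8.27 on KO vehicle and 8.69 on KO metformin. Genes of the interstitial cells of Cajal, the pacemaker cells of gut muscle, had a median of -0.79, with 3 of 7 at least 2-fold lower, from Kit, their receptor kinase (-1.61), to the mesenchymal gene Cd34 (-0.34). Of the 10 interstitial cell genes, 9 were measured here. That list also holds genes that other mesenchymal cells carry, such as Pdgfra and Cd34, so its median is not particular to Cajal cells. Endothelial genes had -0.56 (1 of 9 lower by 2-fold), parietal cell genes -0.42 (4 of 13) and tuft cell genes 0.08 (0 of 5). Mesothelial genes, of the outer lining, had -0.68 with 2 of 4 lower. Endocrine cell genes, which share Snap25 and Ncam1 with neurons, had -0.34 with 2 of 10 lower, the insulinoma antigen gene Ptprn (-1.26) and Chga (-1.01). Among lists of tissues that a sample could carry along, squamous genes had 0.78 (5 genes), fat cell genes 0.68 (2 genes) and skeletal muscle genes -0.04 (3 genes). The part of these cells in the values of the 30 genes was not tested.

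**Figure D2:**
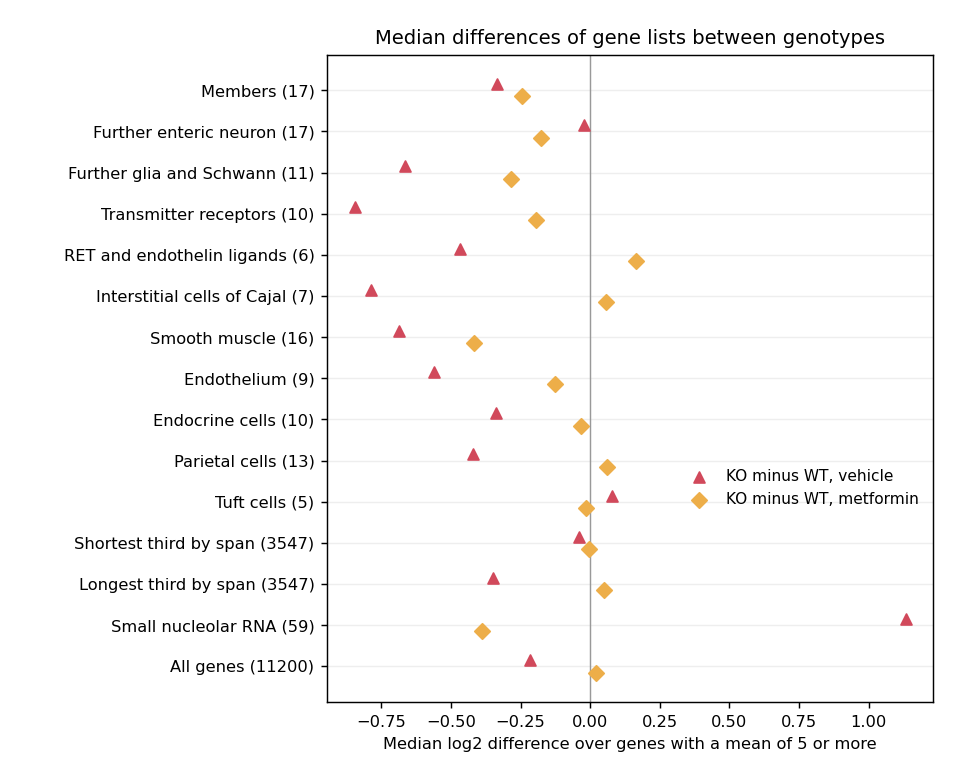
Median log2 difference between KO and WT (x axis) for each gene list (rows, with the number of genes with a mean of 5 or more), as triangles for the vehicle arrays and diamonds for the metformin arrays. The 17 genes described here (-0.34 and -0.25) lie among several lists with negative medians under vehicle, while small nucleolar RNA genes lie at 1.13.

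The further enteric neuron genes had values on both sides of 0. Of the 40 on that list, 35 were measured here and 17 passed, with a median of -0.02 under vehicle. Among the 17, 1 was at least 2-fold lower and 1 at least 2-fold higher, against 8.05% and 2.32% of all genes. The lower one was Scg3, a granule protein of neurons and endocrine cells (-1.19), followed by the vesicular monoamine transporter gene Slc18a2 (-0.93). The higher one was Rab3c, a vesicle GTPase (1.15), followed by the peptide gene Cartpt (0.71). The nicotinic subunit gene Chrnb4, a neighbour and partner of Chrna3, had -0.90. Grp, the gastrin-releasing peptide gene, had 5.92, 6.67, 6.48 and 6.03, so that, as for Vip, the WT metformin array was highest.

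The genes of receptors that read the transmitters were low on the KO vehicle array. That list of 21 genes also held the kinase gene Prkg1 and Adcyap1r1 (-2.09), a receptor gene for the peptide PACAP. Its median is thus not one of receptors for the members' transmitters alone. Of the 21 genes, 20 were measured here and 10 passed the threshold, with a median of -0.85 under vehicle. Among the 10, 5 were at least 2-fold lower and 0 higher, against 8.05% and 2.32% of all genes. Vipr2, the receptor for VIP on smooth muscle, had 8.68, 6.94, 6.10 and 6.62. Tacr2, the neurokinin receptor of gut muscle, had 9.14, 7.77, 6.74 and 8.37. For both, WT vehicle was highest and KO vehicle lowest, with differences of -2.57 and -2.40. The genes of their peptides, Vip and Tac1, were highest on the WT metformin array instead. The highest in the list were Chrm1 (-0.06) and Chrm3 (-0.45), muscarinic receptor genes.

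A list of ligands and processing enzymes of RET and endothelin signalling also held related coreceptors and growth factors such as Bmp4. Its median is thus not one of ligands alone. Gdnf, the ligand of GFRA1 and RET, was between 3.81 and 4.34 and so under the threshold on every array. Of the 16 genes in that list, 13 were measured here and 6 passed, with a median of -0.47 under vehicle. Among the 6, 2 were at least 2-fold lower, against 8.05% of all genes. The 2 were Bmp4, a morphogen of the mesenchyme (-1.96), and the endothelin gene Edn1 (-1.27). The highest were the neurturin gene Nrtn (0.52), the ligand for the GFRA2 coreceptor, with 5.54, 5.80, 6.06 and 6.27, and Edn3 (0.03), the endothelin that acts on EDNRB in crest cells. Nrtn was thus higher on both KO arrays than on both WT arrays, while Gfra2 was lowest on the KO vehicle array.

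Under metformin the genotypes differed less. Of the 17 genes, 0 were lower and 0 higher in KO by at least 2-fold, against 0.384% and 0.527% of all genes. The median was -0.25, against 0.02 for all genes, and 13 of the 17 lay below the median of all genes. Over all 30 genes, 23 had a lower value in KO, against 50.2% of all genes. Vip (-0.96) and Ret (-0.71) were lowest and L1cam (0.29) and Penk (0.12) highest. Tac1, under the threshold, had -1.30. The smooth muscle median in this comparison was -0.42, that of the further glia list -0.29 and that of the further neuron list -0.18. Interstitial cell genes had 0.06. Squamous genes had 3.41 over the 5 past the threshold and 1.48 over all 11 measured. Dpysl3, a growth cone protein gene (-0.60), and Grp (-0.64) were lowest in the further neuron list, and Rab3a (0.39) and Syp (0.29), both of synaptic vesicles, were highest.

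**Figure D3:**
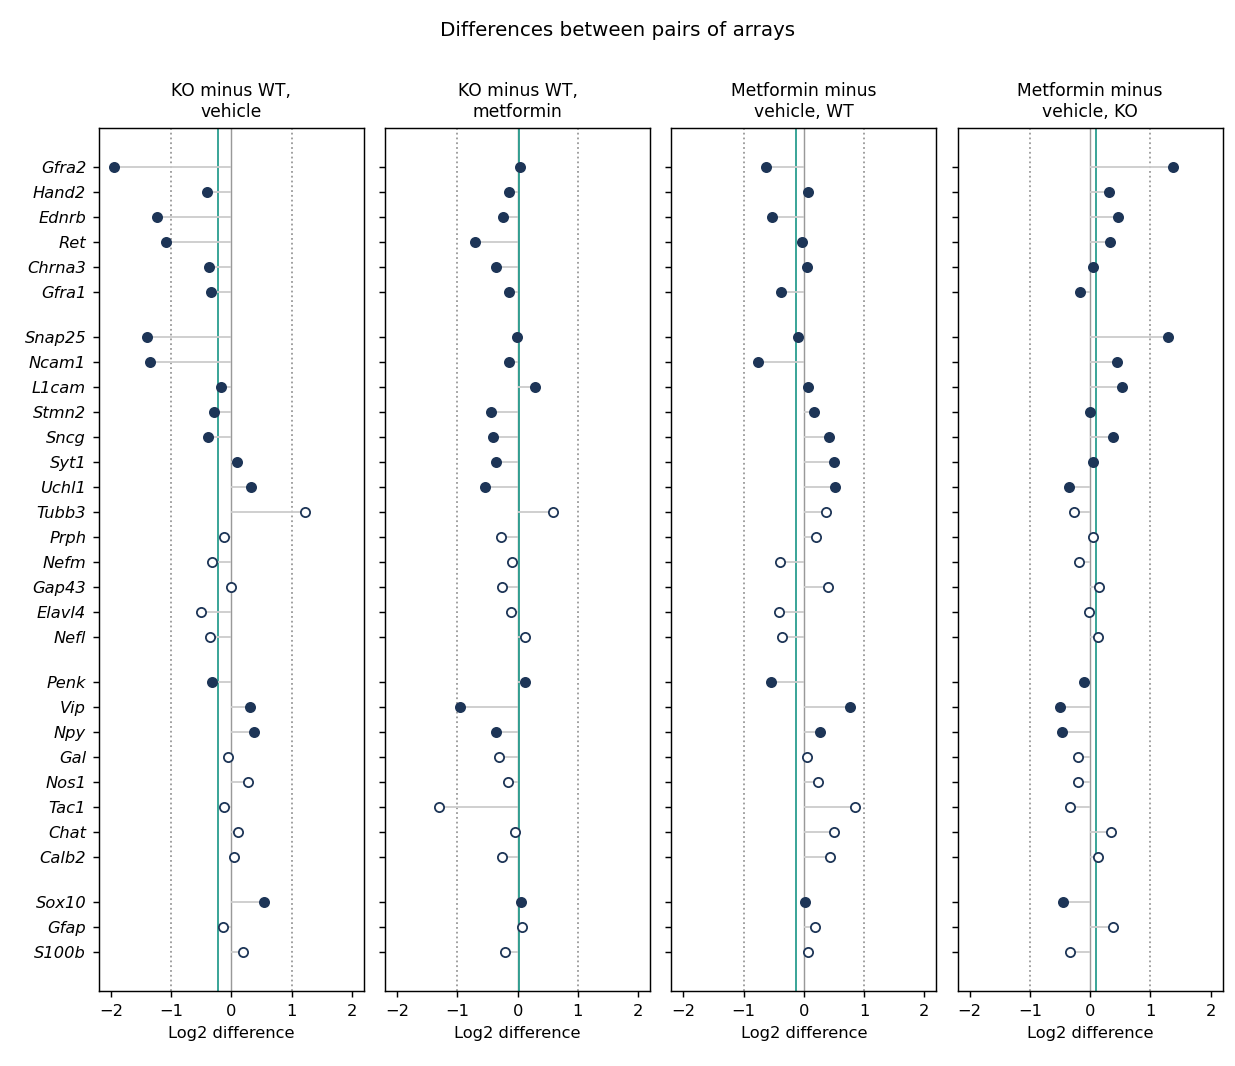
Log2 difference between pairs of arrays (x axis) for the 30 genes (rows), with filled points for genes with a mean of 5 or more, open points for the others, dotted lines at 2-fold and a green line at the median of all genes past the threshold. Filled points pass the dotted lines for 5 genes in KO minus WT under vehicle and for 2 genes in metformin minus vehicle in KO.

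Metformin was compared with vehicle in WT mice to look for responses in stomachs with mature parietal cells. Of the 17 genes, 0 were higher and 0 lower by at least 2-fold, against 0.768% and 0.920% of all genes. Their median was 0.05 and that of all genes -0.13, with 12 of the 17 above the latter. Over all 30 genes, 10 had a lower value with metformin, against 50.7% of all genes. The highest were Vip (0.76), Uchl1 (0.52) and Syt1 (0.50), of which Uchl1 passed the threshold only through the WT metformin array. The lowest were Ncam1 (-0.75), Gfra2 (-0.62) and Penk (-0.54). Of the 8 transmitter and peptide genes, 7 had higher values with metformin, against 10874 of all 22180 genes, and Penk was the exception. Of these 7, 5 were under the threshold, so no response is read from this count. The transmitter receptor list had a median of -0.57. In it 2 of 10 were at least 2-fold lower, Vipr2 (-1.74) and Tacr2 (-1.38), against 0.920% of all genes. In the same comparison genes of the interstitial cells of Cajal had a median of -0.54 and smooth muscle genes 0.12.

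In KO mice, whose parietal cells are reduced in number and impaired in maturation per the submitters' design text, 2 of the 17 genes were higher with metformin by at least 2-fold and 0 lower, against 2.42% and 0.607% of all genes. The 2 were Gfra2, higher by 1.37 (2.59-fold), and Snap25, higher by 1.29 (2.44-fold). The lowest were Vip (-0.51), Npy (-0.47) and Sox10 (-0.46). The median of the 17 was 0.05 and that of all genes 0.10. Over all 30 genes, 14 had a lower value with metformin, against 51.9% of all genes. This comparison shares the KO vehicle array with the genotype comparison under vehicle, so the values of Gfra2 and Snap25 in both rest on the same low array. With the span trend removed, Gfra2 and Snap25 were still past 2-fold, at 1.20 and 1.12. The transmitter receptor list had a median of 0.38, with Tacr2 highest (1.62), and smooth muscle genes also had 0.38, with 2 of 16 at least 2-fold higher. Squamous genes had 3.12 over the 5 past the threshold and 1.28 over all 11 measured, and their part in these values was not tested.

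The difference of the metformin responses, KO minus WT, was at least 1 for 3 of the 17 genes, against 11.1% of all genes, and at most -1 for 1 of them, against 3.62%. It was 1.995 for Gfra2, 1.38 for Snap25, 1.20 for Ncam1 and -1.27 for Vip. Ednrb had 0.99. The receptor group, Snap25, Ncam1, L1cam (0.46) and the peptide gene Penk (0.44) lay above the line of equal responses, with Chrna3 (0.0061) nearly on it. Below it lay Vip, Uchl1 (-0.87), Npy (-0.74), Sox10 (-0.48), Syt1 (-0.45), Stmn2 (-0.165) and Sncg (-0.02). General neuronal genes thus lay on both sides. The median of the 17 was 0.20, against 0.25 for all genes. With cyclic loess between arrays, Ncam1 had 0.95 and no longer reached 1. With the trend on span removed, Ncam1 (0.75) and Snap25 (0.98) no longer reached it, while Vip had -1.37.

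**Figure D4:**
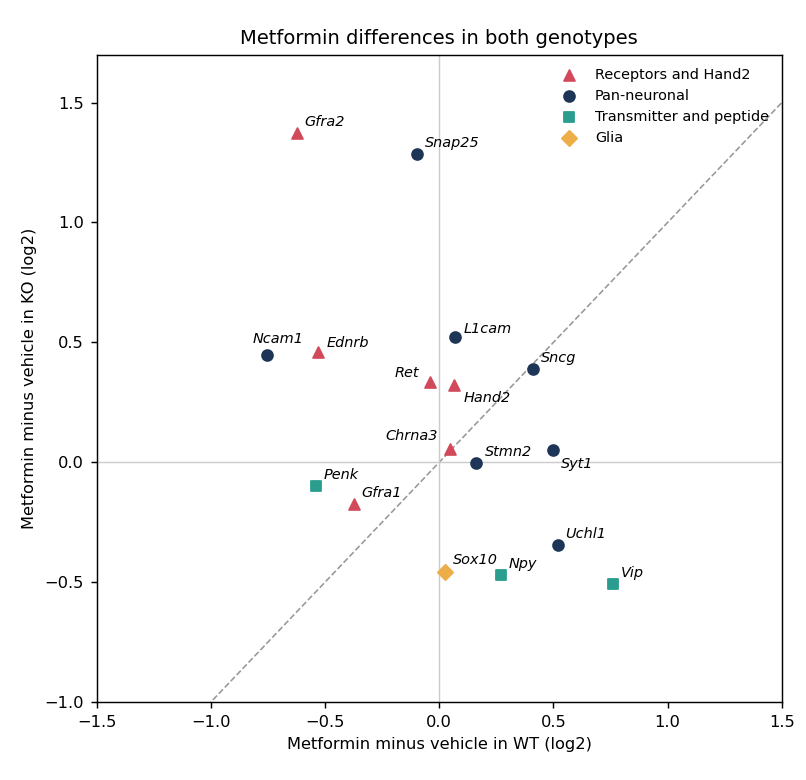
Log2 difference of metformin minus vehicle in WT (x axis) and in KO (y axis) for the 17 genes with a mean of 5 or more, 1 array per group, with a dashed line of equal responses. Gfra2 and Snap25 lie highest, at 1.37 and 1.29 in KO, and Vip lies farthest to the right, at 0.76 in WT and -0.51 in KO.

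Effects averaged over 2 arrays against 2 were tested with limma, in a fit on all 11200 genes with genotype and treatment as terms and 1 residual degree of freedom. For genotype, 0 of the 17 genes passed a Benjamini-Hochberg adjusted p of 0.05, where 4 of all genes were higher in KO (0.0357%) and 1 lower (0.00893%). The gene nearest to it was Ret, lower in KO by -0.90 ± 0.30 (SE) and lower on both KO arrays than on both WT arrays, with an unadjusted limma p of 0.0157 and an adjusted p of 0.999. It was the only one of the 17 with an unadjusted p under 0.05, against 3.47% of all genes, and all genes under it numbered 389. With an intensity trend in limma, 3 of the 17 (Ret, Gfra2 and Ednrb) and 423 of all genes were under it. With no threshold on the mean, 3 of the 30 and 764 of all genes were under it. These 3 were Ret and Ednrb, lower in KO, and Tubb3, higher in KO by 0.90. After centring, 5 of the 17 (Ret, Gfra2, Ednrb, Snap25 and Ncam1) and 516 of all genes were under it. In that setting limma gave all genes the same SE (0.39). A gene's own residual thus did not enter, also where the genotypes differed on the vehicle arrays only. In the fit without centring or trend, Gfra2 had -0.95 ± 0.44 (SE) and an adjusted limma p of 0.999. For metformin, 0 of the 17 passed in limma, and 0 had an unadjusted p under 0.05, against 0.304% of all genes. Where the genotypes respond unlike each other, that difference enters the residual of this fit, and it was 1.995 for Gfra2.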

How the data were processed

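Total RNA was labelled as biotinylated cDNA for Affymetrix arrays, per the labels' protocols. The authors deposited log2 values per probe set, and the submitters' processing notes name RMA (robust multi-array averaging) and Partek. That the scale is log2 rests on the values themselves (0.77 to 14.02). Versions, settings and build were not given in these sources, and the number of arrays limits the precision. Groups were taken from the sample titles.

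Of 41345 probe sets, 23521 had 1 gene in the platform annotation, 1814 had several and 16010 were unnamed here. Symbols were updated by gene identifier in RefSeq (GRCm38.p6), where 23328 of the 23521 and all 30 members were found. Genes with a mean of 5 or more were counted as higher or lower at a difference of 1 (2-fold), without a p-value. The fit used limma (version 3.58.1, R 4.3.3). It was also run on simulated data with genotype effects and no interaction, and nothing is read from that run. Other steps used Python 3.11.15, pandas 2.3.3 and statsmodels 0.14.6. Percentages beside a count are the share of all genes tested that met the same rule. Named genes are all members, up to the 2 highest and 2 lowest genes of each further list described, and Vipr2, Kit and Gdnf. Chrnb4 was picked out after its values were seen, and Prkaa1 and Prkaa2 are named as the targeted genes. Prkg1 and Adcyap1r1 are named to describe what their list holds. The members and lists were chosen with earlier results of these data known. Alternatives were cyclic loess, centring on the median, averaging of probe sets per gene, other thresholds and, chosen after seeing the data, subtraction of a lowess trend (fraction 0.3) on gene span among protein-coding genes.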

Additional observations from a re-analysis of the deposited data

Results flagged for a closer look

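For 4 of the 17 genes with a mean of 5 or more, the metformin differences in WT and KO had opposite signs and lay at least 1 apart on the log2 scale. The KO response minus the WT response was 1.995 for Gfra2, 1.38 for Snap25, 1.20 for Ncam1 and -1.27 for Vip. With 1 array per group this difference was not tested. Gfra2, Snap25 and Ncam1 had their lowest values on the array of KO mice given vehicle, and Vip was highest on the WT metformin array and lowest on the KO metformin array.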

How the results depend on the processing

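No paired analysis was possible because the labels carry no replicate numbers and each group has 1 array. Of 214 values recomputed under the alternatives, 181 stayed within the spread taken for comparison (0.22, the median residual SD of the additive fit) or, for counts, within 1.5 times, 33 moved and 0 changed the sign of a called gene. Another threshold cannot change the value of a called gene, and averaging cannot either, since each called gene has 1 probe set. The 181 include such values, so these counts are no measure of stability. With probe sets averaged per gene, the median of members in KO with metformin was 0.32 (15 genes), against 0.10 for all genes. With no threshold on the mean, 1 of 30 members was higher in KO under vehicle (2.69% of all genes) and 1 lower in KO under metformin (0.343%). For the difference of responses the median was -0.0865, against -0.017 for all genes, and 2 were lower (5.28% of all genes). With a mean of 6 or more, 6 members were left, with medians of -0.54 (WT response), 0.45 (KO response), -1.29 (KO against WT, vehicle) and 1.10 (difference of responses). The medians of all genes were -0.17, 0.14, -0.28 and 0.33. In the difference of responses 0 members were lower, against 3.63% of all genes. At 1.5-fold, the WT response had 1 of 17 members higher and 2 lower, against 3.55% and 9.0% of all genes. KO against WT under metformin had 2 lower, against 2.64%, and the difference of responses 3 lower, against 9.64%. With the span trend removed, 2 members were lower in KO under vehicle, against 4.05% of the genes tested. In the difference of responses 1 was higher and 2 lower, against 5.71% and 4.14%. In limma, genes higher in KO numbered 21 after centring and 7 with an intensity trend, and genes lower 19 after centring and 0 with no threshold, while 3 genes were higher with metformin after centring. After centring, limma gave all genes the same SE, so a gene's own residual did not enter. The cause of these moves was not tested, except that fewer or more genes enter under other thresholds. Scaling moved the share of lower calls among all genes in KO against WT under vehicle from 77.6% to 60.3% (cyclic loess) and 89.5% (centring), and the median of all genes from -0.22 to -0.07 and -0.37. The same share went from 54.5% to 40.4% and 69.3% in the WT response, from 20.1% to 32.5% and 10.2% in the KO response, and from 24.6% to 41.9% and 13.2% for the difference of responses. Signal over background was not given in these sources.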
